A study of Mus musculus with 8 samples.

Results

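Polycystic kidney and primary cilium genes are the 9 genes Pkd1, Pkd2, Pkhd1, Bicc1, Invs, Ift88, Kif3a, Cys1 and Glis3, taken by symbol from a deposited mouse RNA-seq table that holds 77981 genes. Each of the 9 symbols matched 1 identifier, and all 9 passed the filter on low values, which asked for 1 TPM or more on average. TPM, the share of all transcripts scaled to a fixed total, is an abundance per transcript length. Levels in TPM can thus be set side by side between genes, though how evenly messages of unlike length were recovered was not tested. The tissue is mouse kidney and the labelled cell type is IMCD, the inner medullary collecting duct. The 4 control libraries are AVP-flox, a genotype with a loxP site in the first intron of the vasopressin gene Avp and another past its 3′ end. The 4 other libraries are AVP-flox;Cre and also carry a Cre recombinase whose promoter the labels do not give. All 8 libraries come from Tamoxifen treatment, a drug that switches on inducible forms of Cre, so the controls share the floxed allele and the drug. No library carries Cre without the floxed allele. Nothing in the labels ties replicates to separate mice, so p-values may measure only the spread between these samples. Ages are not given.

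The primary cilium is a single antenna that stands on the lumenal face of collecting duct cells. Its shaft is built by intraflagellar transport (IFT), in which kinesin and dynein motors carry cargo on IFT particles, and a transition zone at its base controls entry. Polycystin-1 and polycystin-2, the products of Pkd1 and Pkd2, sit together in its membrane, and mutation of either gives autosomal dominant polycystic kidney disease. Loss of most of the other members also gives cystic kidneys in mice or people. Vasopressin acts on the collecting duct through cyclic AMP, a messenger long studied as a driver of cyst growth.

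The start regions of 3 members that were higher in AVP-flox;Cre are shown because these genes moved in the same direction. Bicc1, which was also higher, had no entry among the promoters used, so its start region was neither shown nor searched. The regions shown are RefSeq promoters on GRCm38.p6, 300 bases from 250 before to 50 after the annotated start. They are not aligned to each other and are written 5′ to 3′ on the gene's own strand, which is the minus strand for all 3. The windows are chr1:20618008-20618307 for Pkhd1, chr12:24681746-24682045 for Cys1 and chr19:28680028-28680327 for Glis3.
Pkhd1: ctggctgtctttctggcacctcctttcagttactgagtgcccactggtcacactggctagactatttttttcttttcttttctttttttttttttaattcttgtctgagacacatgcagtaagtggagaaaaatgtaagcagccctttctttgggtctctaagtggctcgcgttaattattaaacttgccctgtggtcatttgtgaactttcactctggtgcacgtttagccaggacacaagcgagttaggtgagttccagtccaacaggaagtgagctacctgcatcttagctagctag
Cys1: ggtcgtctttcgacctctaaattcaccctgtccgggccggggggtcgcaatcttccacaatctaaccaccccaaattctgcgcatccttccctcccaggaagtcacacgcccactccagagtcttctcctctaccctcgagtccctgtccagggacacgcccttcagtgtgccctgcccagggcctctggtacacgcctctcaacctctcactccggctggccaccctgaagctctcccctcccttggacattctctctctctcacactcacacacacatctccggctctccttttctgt
Glis3: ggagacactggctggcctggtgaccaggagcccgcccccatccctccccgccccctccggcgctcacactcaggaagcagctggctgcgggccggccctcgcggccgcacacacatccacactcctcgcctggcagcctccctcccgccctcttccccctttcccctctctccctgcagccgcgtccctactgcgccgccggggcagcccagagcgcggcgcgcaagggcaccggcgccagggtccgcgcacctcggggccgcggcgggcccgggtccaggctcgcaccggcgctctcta

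The 3 windows have little composition in common. GC content was 43.3% in Pkhd1, 59.0% in Cys1 and 76.3% in Glis3, where the median over 32817 promoters was 52.7%, and they held 4, 12 and 32 CpG dinucleotides. None of the 3 windows, and none of the windows of Pkd1, Pkd2, Invs, Ift88 and Kif3a, held the cyclic AMP response element TGACGTCA (1.79% of all promoters of this length), its core TGACG (20.8%) or the consensus X-box (0.0701%), which is read by ciliary RFX factors. Both strands were searched, and TGACG lies within TGACGTCA. The X-box was searched only as its full consensus of 14 letters, which 23 of 32817 promoters held. A match in any of these windows was thus unlikely from the start, and its absence cannot decide whether they hold RFX sites. A shorter part was searched for the cyclic AMP response element only, and partial X-box sites were not searched. The search describes the letters searched in these windows only, and with no match no base is capitalised.

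Between genotypes, Pkhd1, Cys1, Bicc1 and Glis3 were higher in AVP-flox;Cre, and 0 of the 9 members were lower, at an adjusted p under 0.05 (limma on log2(TPM + 1), Benjamini-Hochberg over all 19043 genes tested). At the same threshold 27.3% of all tested genes were called, 13.1% higher and 14.2% lower. Both polycystin genes, both transport genes (Ift88 and Kif3a) and Invs were not past the threshold. The groups did not overlap for the same 4 members that were called, and 29.5% of all tested genes had groups that did not overlap, 14.7% in the upward direction. The median log2 fold change of the 9 members was 0.15, against -0.01 over all genes tested. The plot of TPM by library and the plot of fold changes with their intervals show both sets of genes.

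**Figure D1:**
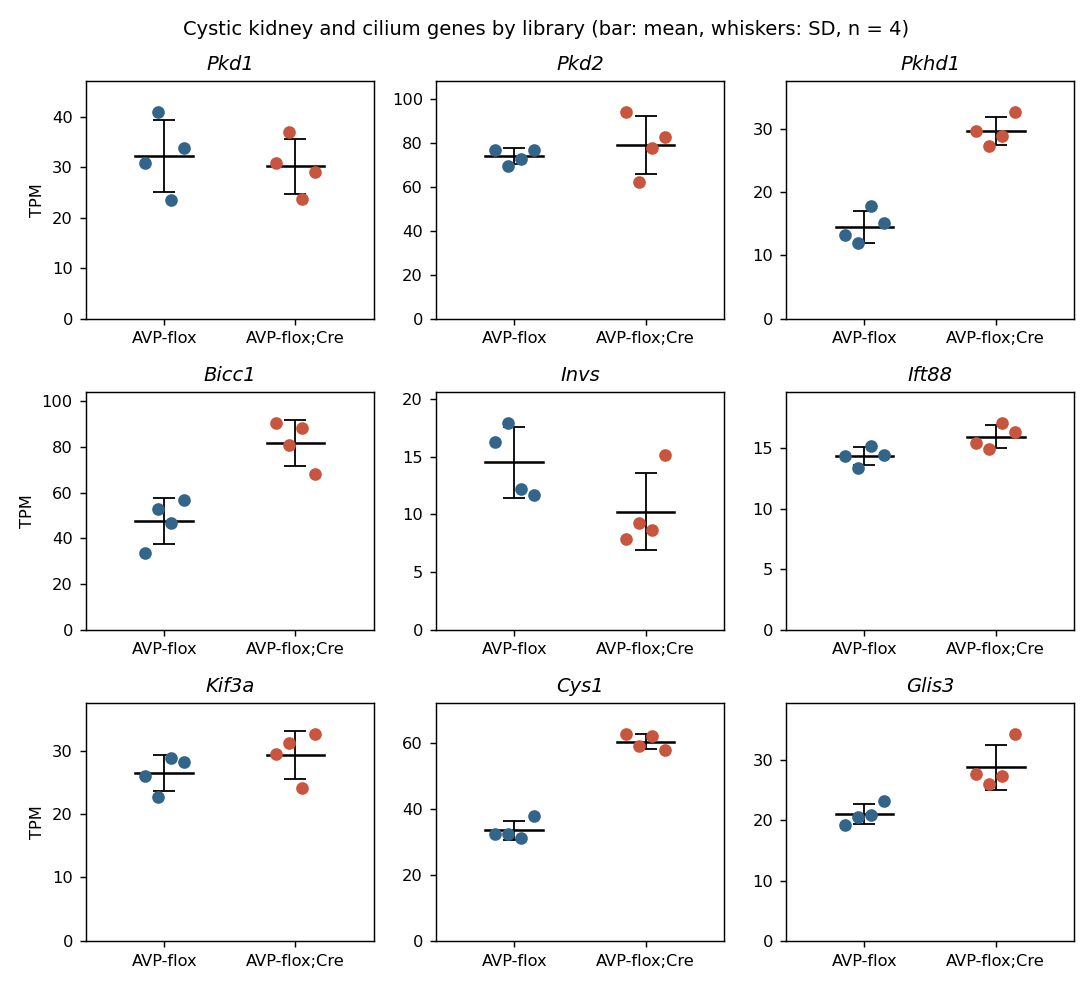
TPM of each of the 9 genes in the 8 libraries, 1 panel per gene with its own axis from 0; points are libraries, the bar is the group mean and the whiskers are the SD (n = 4). Pkhd1, Bicc1, Cys1 and Glis3 have every AVP-flox;Cre library above every AVP-flox library, and the other 5 genes have overlapping groups.

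Pkhd1 encodes fibrocystin, a very large single-pass membrane protein of cilium and apical surface whose loss gives autosomal recessive polycystic kidney disease. It was at 13.29, 11.93, 17.76 and 15.20 TPM in AVP-flox 1 to 4 and at 29.72, 27.39, 28.88 and 32.71 TPM in AVP-flox;Cre 1 to 4. The lowest AVP-flox;Cre library stood well above the highest control, and the 4 AVP-flox;Cre libraries lay close together. Its mean rose 2.04-fold, from 14.5 ± 2.53 to 29.7 ± 2.24 TPM (SD, n = 4), with a log2 fold change of 0.99 (SE 0.12, limma adjusted p = 0.000431). The exact permutation test on mean TPM gave a two-sided p = 0.0286, the smallest that 4 against 4 allows. Every gene whose groups do not overlap gives this value, as 29.5% of tested genes would, so it restates the lack of overlap. An antisense RNA gene that shares 208 exon bases with Pkhd1, 4930486I03Rik, was at 0.39 to 0.91 TPM.

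Cys1 encodes cystin, a small lipid-anchored protein of the ciliary membrane that is lost in the cpk mouse model of recessive polycystic kidney disease. Its libraries were at 32.61, 32.61, 31.14 and 37.94 TPM in AVP-flox and at 62.78, 59.18, 62.21 and 58.01 TPM in AVP-flox;Cre. The groups were widely apart, and the spread within AVP-flox;Cre was the smallest of the 9 members in that group, with a coefficient of variation of 3.82%. The mean rose 1.80-fold, from 33.6 ± 2.99 to 60.5 ± 2.31 TPM (log2 fold change 0.84, SE 0.08, limma adjusted p = 0.000108, exact permutation p = 0.0286). Cys1 had the lowest adjusted p of the 9 genes although its fold was smaller than that of Pkhd1.

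Bicc1 encodes an RNA-binding protein that controls the translation and decay of target messages and is mutated in the jcpk and bpk cystic mice. Its libraries were at 33.81, 52.84, 46.57 and 56.84 TPM in AVP-flox and at 90.47, 80.75, 88.36 and 68.15 TPM in AVP-flox;Cre. AVP-flox 1 was low within its group and AVP-flox;Cre 4 was low within the other, and the groups still did not overlap. The mean rose 1.72-fold, from 47.5 ± 10.1 to 81.9 ± 10.1 TPM (log2 fold change 0.79, SE 0.16, limma adjusted p = 0.0049, exact permutation p = 0.0286). The antisense gene 4930533K18Rik, which shares 349 exon bases with Bicc1, rose from 1.37 ± 0.626 to 3.37 ± 0.743 TPM (limma adjusted p = 0.0171). The cDNA kit does not mark strand, so reads in shared bases cannot be assigned to either gene, and both antisense genes stood far below their partners.

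Glis3 encodes a zinc finger transcription factor whose loss gives cystic kidneys and neonatal diabetes. It was at 19.24, 20.63, 20.96 and 23.19 TPM in AVP-flox and at 27.67, 25.99, 27.29 and 34.29 TPM in AVP-flox;Cre. The groups came closer than for the other 3 called genes, and AVP-flox;Cre 4 was the highest library. The mean rose 1.37-fold, from 21 ± 1.64 to 28.8 ± 3.72 TPM (log2 fold change 0.43, SE 0.11, limma adjusted p = 0.0136, exact permutation p = 0.0286). A further fit, called the 5-library fit, dropped the libraries that stood apart, which are AVP-flox;Cre 2, AVP-flox;Cre 4 and AVP-flox 2, the last with thick limb markers summing to 308 TPM against 1850 to 2250 TPM in the other controls. The call of Glis3 ended in it (0.37, limma adjusted p = 0.0947) and when no filter on low values was used (adjusted p = 0.0524). The adjusted p of Glis3 lay between 0.00443 and 0.0947 over 23 alternatives.

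**Figure D2:**
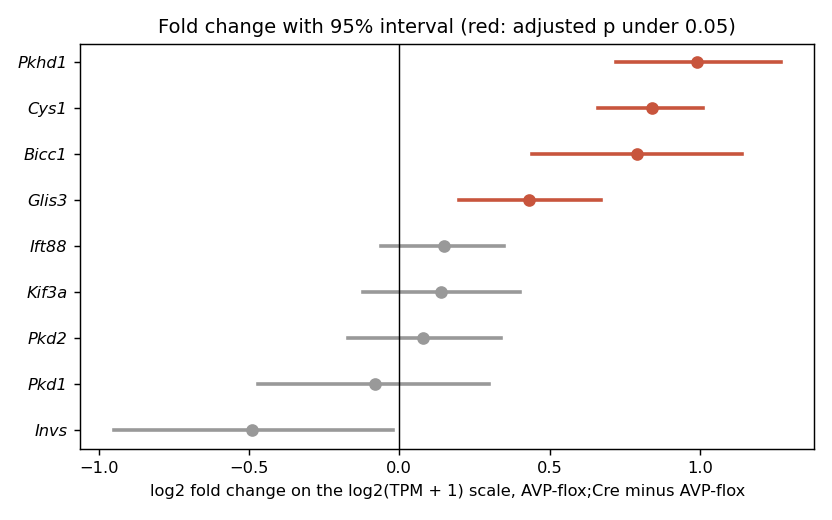
Log2 fold change of each gene, AVP-flox;Cre minus AVP-flox, on the log2(TPM + 1) scale (points) with its 95% interval (lines); red marks an adjusted p under 0.05. The 4 red intervals lie above 0, from 0.43 for Glis3 to 0.99 for Pkhd1, and the interval of Invs lies just below 0 although its adjusted p is 0.111.

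Neither polycystin gene was past the threshold. Pkd1, which encodes the receptor-like partner of the polycystin complex, was at 30.80, 41.01, 23.58 and 33.80 TPM in AVP-flox and at 30.90, 37.08, 23.78 and 29.20 TPM in AVP-flox;Cre. The range within each group was far wider than the gap between the means, 32.3 ± 7.22 and 30.2 ± 5.48 TPM, and replicate 2 was the highest and replicate 3 the lowest in both groups. Its log2 fold change was -0.08 (95% interval -0.47 to 0.30, limma adjusted p = 0.766). The sign changed without AVP-flox 2 (0.04), without AVP-flox;Cre 3 (0.02) and with libraries corrected for GC content at the 5′ end (0.07).

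Pkd2, which encodes the cation channel of the complex, was at 76.77, 69.41, 72.53 and 76.69 TPM in AVP-flox and at 93.90, 62.28, 77.50 and 82.46 TPM in AVP-flox;Cre. The controls were tight, with a coefficient of variation of 4.82%, and the AVP-flox;Cre libraries lay around them, AVP-flox;Cre 2 below all controls and the other 3 above. Means were 73.9 ± 3.56 and 79.0 ± 13.1 TPM (log2 fold change 0.08, 95% interval -0.17 to 0.34, limma adjusted p = 0.637). The difference was 0.00 without AVP-flox;Cre 1. With libraries corrected for 5′ GC content Pkd2 was past the threshold (0.28, limma adjusted p = 0.0414), and its adjusted p ran from 0.0414 to 0.983 over 23 alternatives.

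Pkd2 was the more abundant polycystin message by TPM in every library. The longest annotated transcripts have 14164 nt for Pkd1 and 5219 nt for Pkd2, and how evenly these messages were recovered was not tested. The level of Pkd2 was 2.49, 1.69, 3.08 and 2.27 times that of Pkd1 in AVP-flox 1 to 4 and 3.04, 1.68, 3.26 and 2.82 times in AVP-flox;Cre 1 to 4. The lowest ratios were those of replicate 2 in each group, where Pkd1 was high and Pkd2 low, as the plot of Pkd1 against Pkd2 shows. The mean log2 ratio of Pkd1 to Pkd2 was -1.22 ± 0.36 and -1.39 ± 0.44, a difference within the spread of either group (-0.17, exact permutation test, two-sided p = 0.6).

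**Figure D3:**
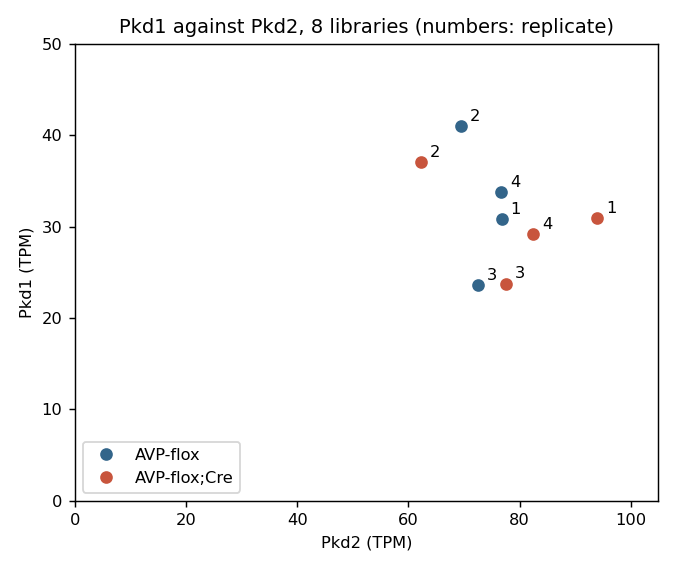
Pkd1 (vertical axis, TPM) against Pkd2 (horizontal axis, TPM), 1 point per library, blue for AVP-flox and red for AVP-flox;Cre, with the replicate number beside each point. All 8 points have more Pkd2 than Pkd1, the groups are mixed, and the libraries of replicate 2 combine the highest Pkd1 with the lowest Pkd2 of their group.

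Pkd1 overlaps a cyst gene of its own. Its exons share 693 bases with Tsc2 on the opposite strand, which encodes tuberin, the tuberous sclerosis protein that restrains mTOR. Tsc2 fell from 99.1 ± 14.2 to 71.2 ± 2.35 TPM (log2 fold change -0.46, limma adjusted p = 0.0077), with groups that did not overlap. Its call ended in the 5-library fit (-0.41, limma adjusted p = 0.0662, range over 23 alternatives 0.00303 to 0.0662). Reads in the shared bases cannot be told apart, and their part in either value was not tested.

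Kif3a and Ift88 build the shaft of the cilium, and neither was past the threshold. Kif3a, a motor subunit of the heterotrimeric kinesin that carries IFT particles to the tip, was at 25.92, 22.73, 28.88 and 28.24 TPM in AVP-flox and at 29.40, 31.17, 24.08 and 32.56 TPM in AVP-flox;Cre. The groups overlapped, with AVP-flox;Cre 3 among the controls (log2 fold change 0.14, 95% interval -0.12 to 0.40, limma adjusted p = 0.412), and the sign changed in the 5-library fit (-0.05). Ift88, a core subunit of the IFT-B particle that is mutated in the orpk mouse, was at 14.32, 13.36, 15.17 and 14.44 TPM in AVP-flox and at 15.46, 14.95, 17.06 and 16.32 TPM in AVP-flox;Cre. Of the AVP-flox;Cre libraries only AVP-flox;Cre 2 lay below the highest control. Ift88os, an antisense gene sharing 67 exon bases, was at 0.08 to 0.39 TPM. The difference in Ift88 was small (log2 fold change 0.15, 95% interval -0.06 to 0.35, limma adjusted p = 0.274, exact permutation p = 0.0571).

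Invs encodes inversin, an ankyrin-repeat protein that marks the proximal part of the ciliary shaft and is mutated in infantile nephronophthisis. It was at 16.28, 17.92, 12.20 and 11.65 TPM in AVP-flox and at 7.86, 9.27, 8.67 and 15.14 TPM in AVP-flox;Cre. 3 AVP-flox;Cre libraries lay below all controls and AVP-flox;Cre 4 lay among them. Means were 14.5 ± 3.07 and 10.2 ± 3.32 TPM (log2 fold change -0.49, SE 0.21, limma adjusted p = 0.111, unadjusted p = 0.041). Without AVP-flox;Cre 4 the difference was past the threshold (-0.67, limma adjusted p = 0.0245), and its adjusted p ran from 0.0245 to 0.315 over 23 alternatives. Invs shares 226 exon bases on opposite strands with Tex10, which was at 29.6 ± 4.55 and 30.5 ± 1.61 TPM.

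Levels in TPM could be ordered within each group. In AVP-flox the order was Pkd2, Bicc1, Cys1, Pkd1, Kif3a, Glis3, Pkhd1, Invs and Ift88. Only Pkd2 and Bicc1, and Glis3 and Pkhd1, were neighbours whose libraries did not overlap. In AVP-flox;Cre the order was Bicc1, Pkd2, Cys1, Pkd1, Pkhd1, Kif3a, Glis3, Ift88 and Invs. There the neighbours without overlap were Cys1 and Pkd1, and Glis3 and Ift88. Pkhd1 thus moved from the level of Ift88 and Invs to that of Pkd1, Kif3a and Glis3. By mean TPM over all libraries the members stood above 52% (Invs) to 85.5% (Pkd2) of the tested genes.

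The called members differed widely in transcript length and base composition. In the annotation GENCODE M21, the longest transcripts of Pkhd1, Cys1, Bicc1 and Glis3 have 12935, 1856, 5431 and 7514 nt and 67, 5, 21 and 11 exons. The first 300 nt hold 48% GC in Pkhd1, 58.3% in Cys1, 74.0% in Bicc1 and 73.0% in Glis3. Pkd1 and Pkd2 are the most GC-rich there, at 74.3% and 76.3%, and Invs, Ift88 and Kif3a hold 58.7%, 54.0% and 59.3%. Of 2373 tested genes above 70% GC there, 10.8% were higher and 24.7% lower, against 14.8% and 13.5% of 14268 other genes. The median difference of those GC-rich genes from the AVP-flox mean was -0.05, -0.22, -0.10 and -0.13 in AVP-flox;Cre 1 to 4, on the log2 scale.

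The genes most like a member over the 8 libraries were sought among 11954 genes averaging 5 TPM or more, by Pearson's r of log2(TPM + 1). For Pkhd1 they were Mfap2 (0.994), a microfibril protein gene, Pros1 (0.993), the gene of the anticoagulant protein S, and Colec12 (0.992), a scavenger receptor gene. Their mean TPM in AVP-flox and AVP-flox;Cre was 12.8 and 27.1 for Mfap2, 24.6 and 46.4 for Pros1 and 25.4 and 70.2 for Colec12, so these values reflect the shared step between groups. For Pkd1 they were Atp23 (0.954), Sirt7 (0.948) and Nradd (0.935), and for Pkd2 Pgm1 (0.940), Gm19409 (0.938) and Ptpn11 (0.935). The 8 libraries are shared by all these pairs, and the highest of so many values is large by selection.

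Another 131 genes of cysts and cilia stood in 12 lists, and 121 of them were tested. 23 rose and 10 fell, 19.0% and 8.26% of those tested, beside 13.1% and 14.2% of all genes. Together 27.3% were called, the same share as among all genes, and the median log2 fold change was 0.09 against -0.01. 88 did not pass. The counts of 23 and 10 became 9 and 4 in the 5-library fit, and 14 and 8 with median-of-ratios scaling. With values rescaled without mitochondrially encoded and the most abundant genes, they were 22 and 15, so that 59.5% in place of 69.7% of the calls were higher. Leaving out AVP-flox 1 or AVP-flox;Cre 3 lowered the 23 to 15 each.

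**Figure D4:**
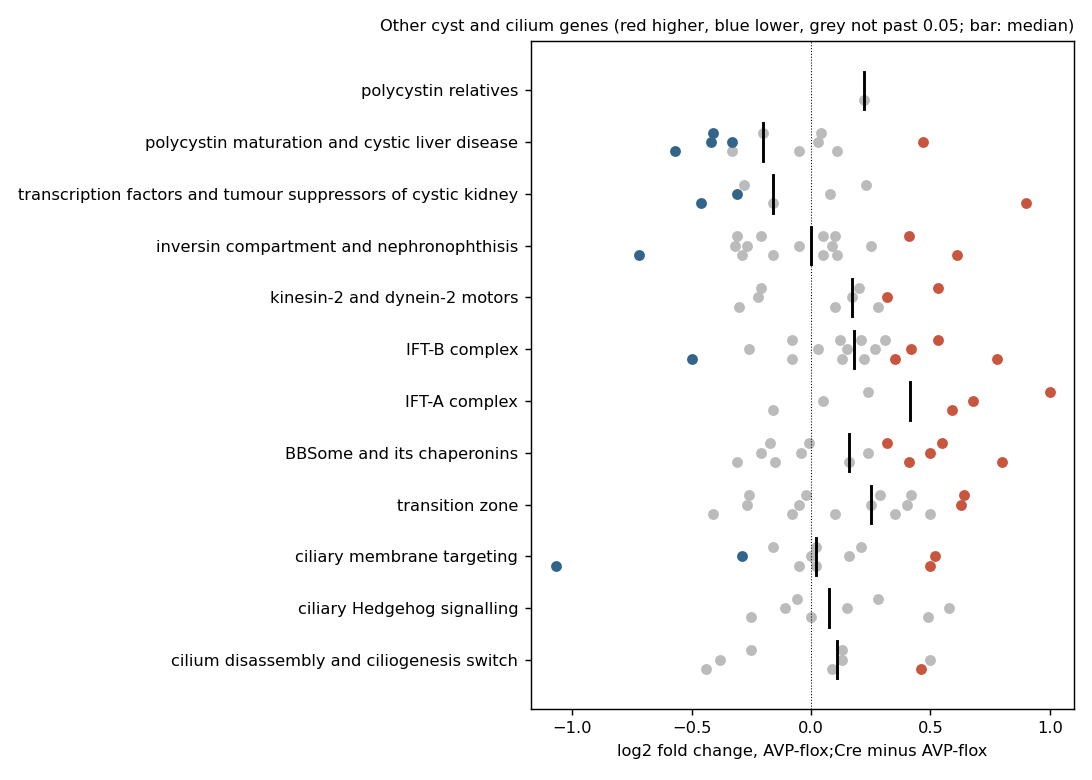
Log2 fold change of each tested gene (points) in 12 lists of other cyst and cilium genes, AVP-flox;Cre minus AVP-flox; red is higher, blue lower and grey not past an adjusted p of 0.05, and the black bar is the list median. The IFT-A list has the highest median (0.42) and the list of polycystin maturation the lowest (-0.20).

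Of 11 genes of polycystin maturation and cystic liver disease, 4 fell and 1 rose, while 6 missed the threshold (median -0.20), so that 36.4% fell beside 14.2% of all genes tested. Ganab and Prkcsh encode the alpha and beta subunits of glucosidase II, which trims glycans in the endoplasmic reticulum. Ganab was at 116.70, 125.27, 120.62 and 115.58 TPM in AVP-flox and at 84.16, 96.56, 89.96 and 89.34 TPM in AVP-flox;Cre. Its groups were well apart, and it fell by 0.41 on the log2 scale (SE 0.07, limma adjusted p = 0.00166). Prkcsh was at 121.88, 133.39, 111.10 and 108.09 TPM in AVP-flox and at 80.39, 96.41, 75.61 and 67.54 TPM in AVP-flox;Cre, and it fell by 0.57 (SE 0.11, limma adjusted p = 0.00485). For both subunits all AVP-flox;Cre libraries lay under all controls. Alg9, a mannosyltransferase gene, fell by 0.33 (limma adjusted p = 0.0159), and Alg8, a glucosyltransferase gene with overlapping groups, fell by 0.42 (limma adjusted p = 0.0459). Dzip1l, a transition zone gene of recessive polycystic kidney disease, rose by 0.47 (limma adjusted p = 0.0218). The call of Alg9 ended in the 5-library fit (limma adjusted p = 0.0819), with median-of-ratios scaling (0.0716) and without a filter (0.0627). That of Dzip1l ended in the 5-library fit (0.34, limma adjusted p = 0.175), without a filter (0.0766), and without AVP-flox 1 (0.0541), AVP-flox 3 (0.0625) or AVP-flox;Cre 3 (0.0521). The polycystin relatives gave 1 tested gene, Pkd2l2, at 2.31 ± 0.417 and 2.85 ± 0.534 TPM, and the other 5 had a mean under 1 TPM.

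Glis2 rose beside Glis3. It encodes a zinc finger factor of the same family and is mutated in nephronophthisis. Its libraries were at 21.70, 22.43, 21.22 and 28.11 TPM in AVP-flox and at 41.16, 48.50, 42.20 and 45.01 TPM in AVP-flox;Cre. The groups did not overlap, and the rise was 1.89-fold (log2 fold change 0.90, SE 0.10, limma adjusted p = 0.000288). Among the 7 tested transcription factors and tumour suppressors of cystic kidney, 1 rose, 2 fell and 4 did not pass (median -0.16). These shares were 14.3% higher and 28.6% lower, beside 13.1% and 14.2% of all genes tested. The second that fell was Fh1, the fumarate hydratase gene (-0.31, limma adjusted p = 0.0357), whose groups overlapped and whose call ended in 11 of 23 alternatives, among them those without AVP-flox 1, 3 or 4 or AVP-flox;Cre 1, 3 or 4 (0.0609 to 0.0963), with a highest adjusted p of 0.118 over all 23.

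Of 16 genes of the inversin compartment and nephronophthisis, 2 rose, 1 fell and 13 did not pass (median 0.00). The called share was 18.8%, beside 27.3% of all genes tested, and the difference between these shares was not tested. Nek8 and Anks6, whose products share the compartment with inversin, had log2 fold changes of 0.10 and -0.16. Zfp423, a zinc finger gene at 1.46 and 2.74 TPM, rose by 0.61 (limma adjusted p = 0.0299). Its call ended without any 1 of 5 libraries, AVP-flox 1, 2 and 3 and AVP-flox;Cre 1 and 3 (0.0514 to 0.0751), and in 4 further alternatives, the 5-library fit among them (0.0899). Xpnpep3, an aminopeptidase gene, fell by 0.72 (limma adjusted p = 0.0131) but not past the threshold in the 5-library fit (0.181).

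Several transport genes were called where Ift88 and Kif3a were not. In the IFT-A complex, which carries cargo back from the tip and brings membrane proteins in, 3 of 6 genes rose and 3 did not pass (median 0.42). The share that rose was 50%, beside 13.1% of all genes tested, and the difference between these shares was not tested. Ift43 was at 41.31, 46.44, 58.75 and 51.76 TPM in AVP-flox and at 95.52, 105.38, 100.91 and 95.45 TPM in AVP-flox;Cre. It doubled in mean, at 2.00-fold (log2 fold change 1.00, SE 0.10, limma adjusted p = 0.000167), with no overlap. Wdr35 and Ift122, the other 2 that rose, had log2 fold changes of 0.68 and 0.59 (limma adjusted p = 0.00327 and 0.0051). The call of Ift122 ended in the 5-library fit (0.0691). Ift140, Wdr19 and Ttc21b of the same complex were at -0.16, 0.24 and 0.05.

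In the IFT-B complex, the partners of Ift88, 4 of 16 tested genes rose, 1 fell and 11 did not pass (median 0.18). These shares were 25% higher and 6.25% lower, beside 13.1% and 14.2% of all genes tested. Ift22, which encodes a small GTPase-like subunit, was at 42.88, 53.13, 40.56 and 44.96 TPM in AVP-flox and at 76.48, 84.83, 82.20 and 70.06 TPM in AVP-flox;Cre. These groups were far apart, a rise of 0.78 on the log2 scale (SE 0.10, limma adjusted p = 0.000468). Ift20, Ift56 and Ift74 rose by 0.42, 0.53 and 0.35 (limma adjusted p = 0.00573, 0.0108 and 0.035). In the 5-library fit these 3 calls ended (0.0577, 0.083 and 0.0954), and that of Ift74 also ended without AVP-flox 1 or 4 or AVP-flox;Cre 1 or 3 (0.0747 to 0.0966). With median-of-ratios scaling the adjusted p was 0.0692 for Ift20 and 0.0978 for Ift74, and without a filter it was 0.128 for Ift74. Ift70b, with overlapping groups, fell by 0.50 (limma adjusted p = 0.0351). It is a near copy of Ift70a1 and Ift70a2, so its reads may be split between them. The anterograde motor partners of Kif3a were not past the threshold, with Kif3b at 0.20, Kifap3 at -0.21 and Kif3c at -0.30. Among the 9 motor genes the 2 that rose belong to the retrograde dynein, Dync2li1 (0.53, limma adjusted p = 0.0015) and Dync2i2 (0.32, limma adjusted p = 0.0246). They were 22.2% of the motor genes, beside 13.1% of all genes tested that rose. The call of Dync2i2 ended without AVP-flox 1 or 4 or AVP-flox;Cre 3 or 4 (0.0503 to 0.0662), in the 5-library fit (0.157), with median-of-ratios scaling (0.105) and without a filter (0.1).

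The BBSome, a coat that moves membrane proteins out of the cilium, had 5 of 13 genes higher with its chaperonins and 0 lower, while 8 did not pass (median 0.16). The share that was higher was 38.5%, beside 13.1% of all genes tested, and the difference between these shares was not tested. Bbs4 was at 23.30, 16.16, 16.93 and 23.19 TPM in AVP-flox and at 36.30, 36.19, 34.22 and 33.18 TPM in AVP-flox;Cre. Its AVP-flox;Cre libraries were tight and all higher, and it rose by 0.80 (SE 0.13, limma adjusted p = 0.00166). Bbs1, Bbs2 and Ttc8 rose by 0.55, 0.32 and 0.41 (limma adjusted p = 0.0114, 0.0359 and 0.0385). Bbs5, named after its values were seen, rose by 0.50 (limma adjusted p = 0.0434), and its call was not refitted in the alternatives. The groups overlapped for Bbs5 and Ttc8. Bbs1 was not past the threshold in the 5-library fit (0.12). The calls of Bbs2 and Ttc8 ended in 11 and 12 of 23 alternatives, those without AVP-flox 1 or 3 or AVP-flox;Cre 1 or 2 among them for both genes, without AVP-flox;Cre 3 for Bbs2, and without AVP-flox 4 or AVP-flox;Cre 4 for Ttc8. Their highest adjusted p was 0.172 for Bbs2 and 0.158 for Ttc8.

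At the transition zone 2 of 15 genes rose and 13 did not pass (median 0.25). The share that rose, 13.3%, was close to that of all genes tested, 13.1%. An unadjusted p under 0.05 in limma was found for 9 of the 15, some upward and some downward, beside 7421 of 19043 genes tested. The difference between these shares was not tested. B9d1 and Tctn2 encode parts of the complex that forms the gate. B9d1 rose by 0.63 (limma adjusted p = 0.00364) and Tctn2 by 0.64 (limma adjusted p = 0.0126), both with groups that did not overlap. In the list of ciliary membrane targeting, 2 rose, 2 fell and 7 did not pass (median 0.02). These shares were 18.2% each, beside 13.1% higher and 14.2% lower of all genes tested. Rab3ip, which encodes the exchange factor that loads Rab8 with GTP at the ciliary base, was at 257.91, 279.97, 279.14 and 327.17 TPM in AVP-flox and at 420.29, 386.60, 390.60 and 421.10 TPM in AVP-flox;Cre. It was the most abundant gene of that list and rose by 0.50 (SE 0.08, limma adjusted p = 0.00144), just short of the threshold in the 5-library fit (0.0502). Arl13b, a ciliary GTPase gene, rose by 0.52 (limma adjusted p = 0.0264), a call that ended without AVP-flox 1, 2 or 3 or AVP-flox;Cre 2 or 3 (0.0502 to 0.0738) and in 4 further alternatives, with a highest adjusted p of 0.1. Pde6d, a carrier of lipid-anchored proteins, fell by 0.29 (limma adjusted p = 0.0126) and was not past the threshold without a filter (0.055). Unc119b and Arl3, which deliver myristoylated proteins such as cystin to the cilium, were at 0.16 and 0.02 and not past the threshold.

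Rab11fip3 fell by 1.07 on the log2 scale (SE 0.26, limma adjusted p = 0.0139), but its AVP-flox;Cre libraries disagreed. It was at 51.10, 53.49, 45.84 and 52.55 TPM in AVP-flox, at 46.27 TPM in AVP-flox;Cre 1 and at 19.53, 20.83 and 16.11 TPM in AVP-flox;Cre 2 to 4. The first 300 nt of Rab11fip3 hold 77.7% GC. In the 5-library fit its log2 fold change was -0.66 (limma adjusted p = 0.232).

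Of the tested genes of ciliary signalling and of the ciliogenesis switch, 1 was called. Of 8 tested genes of ciliary Hedgehog signalling 0 passed in limma, beside 27.3% of all genes tested, and 2 had an unadjusted p under 0.05. Smo and Ptch1, the signal transducer and the receptor, had log2 fold changes of 0.28 and 0.15. Gli1, a target gene, was not tested because it was under 1 TPM in mean. It was at 0.41 ± 0.0678 TPM in AVP-flox and 0.0775 ± 0.0556 TPM in AVP-flox;Cre. Its groups did not overlap, as in 29.5% of the genes that were tested. Among 8 tested genes of cilium disassembly and the switch to ciliogenesis, Hdac6, a tubulin deacetylase gene, rose by 0.46 (limma adjusted p = 0.00834) and 7 did not pass. The share that rose was 12.5%, beside 13.1% of all genes tested. Nek2 of the same list averaged under 1 TPM over all libraries and was not tested. Its means were 1.445 TPM in AVP-flox and 0.455 TPM in AVP-flox;Cre, with groups that did not overlap. Hdac6 was not past the threshold with median-of-ratios scaling (0.0601).

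Some markers of the collecting duct and of other cells moved with the groups as well. In bulk RNA fewer cells of a type and less RNA per cell cannot be told apart. Aqp2, the water channel gene that defines principal cells, was at 5443 to 18131 TPM and fell by 1.35 on the log2 scale (limma adjusted p = 3.38e-05). Avp, the targeted gene, was at 0 to 0.27 TPM over the libraries of both groups and was not tested, so its values cannot check the deletion. The summed level of 9 collecting duct markers was 19900 to 23500 TPM in AVP-flox and 11300 to 13400 TPM in AVP-flox;Cre (3 higher, 3 lower). Aqp2 alone sets the direction of that sum, since the other 8 markers summed to 4710 to 5570 TPM in AVP-flox and 5880 to 6730 TPM in AVP-flox;Cre, led by Cdh16 (means 1830 and 3238 TPM) and Slc14a2 (1013 and 1376 TPM). Aqp3 and Aqp4 were the other 2 that fell. Avpr2, Hsd11b2 and Gata3 did not pass, with log2 fold changes of 0.08, -0.11 and 0.02. The summed level of 4 thin limb of Henle markers was 1720 to 2130 TPM in AVP-flox and 2420 to 2590 TPM in AVP-flox;Cre, with 3 of 4 higher. The sums were 61.2 to 130 and 327 to 493 TPM for 6 markers of papillary surface and urothelium (4 higher, 1 lower), and 110 to 149 and 226 to 289 TPM for 5 interstitial markers (2 higher). For 5 endothelial markers they were 2170 to 2260 and 1730 to 1800 TPM (1 higher, 2 lower). The 7 intercalated cell markers summed to 179 to 284 and 237 to 321 TPM (2 of 6 tested higher, Slc26a4 under 0.5 TPM throughout), and 5 leukocyte markers to 92.1 to 285 and 173 to 323 TPM (1 higher). The 7 markers of motile cilia summed to 4.11 to 7.4 and 5.99 to 8.64 TPM, with Dnah5 and Tekt1 under 0.5 TPM in every library. Proximal tubule markers (42.4 to 676 and 93.5 to 246 TPM) and those of thick limb and distal tubule (308 to 2250 and 502 to 740 TPM) had 0 genes past the threshold in limma, with 0 and 2 genes at an unadjusted p under 0.05. Beside these counts, 13.1% of all genes tested were higher and 14.2% lower. The part of these cells in the values of the members was not tested.

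The AVP-flox;Cre libraries were uneven. In AVP-flox;Cre 2, 33576 genes were detected at any level, and 50951 to 58232 elsewhere, while AVP-flox;Cre 2 and 4 lay at opposite ends of the second principal component (18.3% of the variance). Xist and Y-linked genes gave a male pattern in AVP-flox 1, AVP-flox;Cre 1 and AVP-flox;Cre 2, and a female one elsewhere. Esr1 ranged from 0.91 to 2.23 TPM in controls and from 54.18 to 202.34 TPM in the Cre genotype, and inducible Cre proteins carry part of the estrogen receptor that this gene encodes. The source of these reads was not tested. In the 5-library fit, thick limb and distal tubule markers summed to 1850 to 2250 TPM in the controls kept. They summed to 640 and 502 TPM in AVP-flox;Cre 1 and 3, so genotype and these markers cannot be told apart in that fit. The calls of Pkhd1, Cys1 and Bicc1 held in it and with sex as a covariate. The plot of fold changes under each alternative shows their ranges, 0.83 to 1.09 for Pkhd1, 0.77 to 0.89 for Cys1 and 0.64 to 0.98 for Bicc1, all with an adjusted p under 0.05 in 23 of 23 alternatives.

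**Figure D5:**
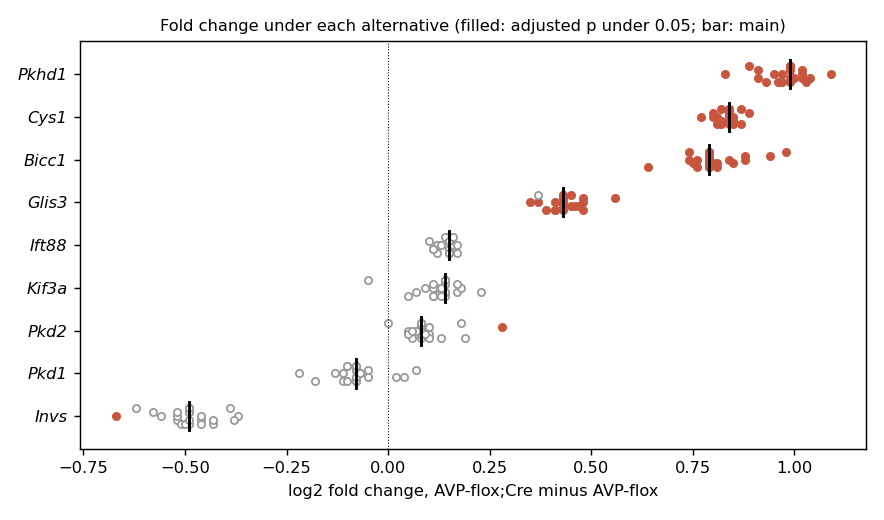
Log2 fold change of each gene, AVP-flox;Cre minus AVP-flox, in each of 23 alternative analyses (points, spread vertically for legibility), filled where the adjusted p was under 0.05, with the main value as a black bar. Pkhd1, Cys1 and Bicc1 are filled in all, Glis3 in 21, and Pkd2 and Invs in 1 each.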

How the data were processed

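The deposited table holds TPM values made by the authors, 1 column per library, for 78298 Ensembl mouse gene identifiers. The submitters' processing notes list STAR and RSEM. The build and annotation used with them are not given here. Per the labels, the SMART-Seq HT kit made the cDNA and Nextera XT the libraries. TPM keeps no depth, so counting error cannot be stated. WT columns were taken as AVP-flox and KO columns as AVP-flox;Cre, matched by replicate number.

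Identifiers sharing a symbol were summed. Testing used log2(TPM + 1) for genes averaging 1 TPM or more, where limma 3.58.1 (R 4.3.3) with a mean-variance trend compared the groups over all 8 libraries. P-values were two-sided, adjusted by Benjamini-Hochberg and called under 0.05. The procedure was tested on simulated data. Folds are ratios of mean TPM. The members and lists were chosen with earlier results of these data known. Named genes are all 9 members, in each list every called gene up to 4 by smallest adjusted p, and the 3 genes most like Pkd1, Pkd2 and Pkhd1, except that some list genes are not reported here. Other list members, and the antisense neighbours, Tex10, Alg8, Esr1 and marker genes, are named for their role after their values were seen. Transcript features came from GENCODE M21, which matched 87.4% of tested genes, and promoters from RefSeq (GRCm38.p6), neither known to be the authors' build. 1 of the 5 thin limb markers (Akr1b3) was not matched by symbol.

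Alternatives were a replicate block, other pseudocounts (0.1 and 5), filters, scalings and variance models, unsummed identifiers, sex as a covariate, a 5′ GC correction, the 5-library fit, and leaving out each library.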

Additional observations from a re-analysis of the deposited data

Results flagged for a closer look

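Rab11fip3, which encodes an effector of Rab11 in membrane traffic to the cilium, was at 46.27 TPM in AVP-flox;Cre 1, far from the 16.11 to 20.83 TPM of the other 3 libraries of that group and close to the controls. It was the 1 outlying library in 78 groups of 4 checked, where chance gives about 1 in 20.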

How the results depend on the processing

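Pkhd1, Cys1 and Bicc1 kept their direction and side of the threshold in 23 of 23 alternatives, and the number of called members ran from 3 to 5. With each library left out in turn, log2 fold changes ran from -0.22 to 0.04 for Pkd1, from 0.00 to 0.19 for Pkd2, from -0.67 to -0.38 for Invs and from 0.07 to 0.23 for Kif3a, and the difference in the log2 ratio of Pkd1 to Pkd2 from -0.38 to -0.01. Counts of other cyst and cilium genes then ran from 15 to 23 higher and from 7 to 11 lower. With 5′ GC correction Pkd1 was at 0.07 and Pkd2 at 0.28 and past the threshold. Without a filter Glis3 (0.43) was not past it, 3409 genes were called in place of 5204 (1643 lower in place of 2713), and 14 other cyst and cilium genes were higher and 5 lower, with 67580 genes tested. Median-of-ratios scaling gave 14 higher, and the cause was not tested. In the 5-library fit, which has fewer samples, Glis3 was at 0.37 and not past the threshold, Kif3a at -0.05, and 2224 genes were called (1218 higher, 1006 lower), of them 9 and 4 in the other lists. Of the 30 called list genes refitted, 10 were called in every alternative in which they were fitted. Alg8, Ift70b and Bbs5, called with overlapping groups, were not refitted, so how their calls depend on the processing is not known. Over all genes tested, deviations of same-numbered libraries from their group means had r from 0.00 to 0.09, against -0.06 to 0.07 for unlike numbers. Values this small from 4 libraries per group cannot decide whether the numbers pair them. With a replicate block 4431 genes were called in place of 5204, 20 and 8 of them in the other lists, and 4 members were called. The unknown depth limits what can be said of genes below 1 TPM.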
